A study of Mus musculus with 12 samples.

Results

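The genes described are the axon guidance ligands and receptors of the mouse: semaphorins with their plexin and neuropilin receptors, ephrins with Eph receptors, slits with Robo receptors, and netrins with Dcc and the Unc5 receptors. Members were taken by name, as the protein-coding rows whose gene symbols belong to these families, and the rule used no measured value. The choice was made with earlier results of these data known. The rule gave 69 genes of 21926 protein-coding genes and 55862 rows in all. They comprise 20 semaphorins, 9 plexins, 2 neuropilins, 5 ephrin-As, 3 ephrin-Bs, 9 EphA and 5 EphB receptors, 3 slits, 4 Robo receptors, 4 netrins, and Dcc with 4 Unc5 receptors. RNA sequencing was done on 12 libraries of brain cells from C57BL/6 mice, in 4 groups of 3. AST were astrocytes without incubation (day 0), the negative control. A-iSC were astrocytes incubated as 3D spheres for 5 days. The positive controls, P56-NSC and P0-NSC, were progenitor cells of the brain, which the labels call NPCs. No genotype, sorting step or culture medium is given in the labels used here, and the prefixes P56 and P0 are used only as names of groups. Whether replicates were separate cultures or separate animals is not said in the labels, so p-values reflect the spread among these libraries alone, and that spread may be technical.

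Guidance cues are read by growth cones and by migrating cells through receptors that act on the actin cytoskeleton. Semaphorins bind plexins, and the secreted class 3 semaphorins mostly need a neuropilin as co-receptor. Ephrins are bound to the membrane and are read by Eph receptor tyrosine kinases on contact, and the Eph-bearing and the ephrin-bearing cell can both respond. Slits repel axons and neuroblasts through Robo receptors, and netrins attract through Dcc or repel through Unc5 receptors. In glia and neural progenitors several of these genes act in cell sorting, migration and the spacing of cells. Levels below are in FPKM (fragments scaled by transcript length and by a total per library), a unit per gene length, so that genes can be compared with each other. They are given as mean ± SD with n = 3 per group, or as the 3 library values in replicate order. A change is the difference of 2 group means of log2(FPKM + 1), given ± its standard error (SE), and this scale understates the change of low genes.

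The libraries held 17077780 to 24452419 recovered reads, and 1 read in a transcript of 1 kb was worth 0.0343 to 0.0623 FPKM. The totals behind the FPKM values were 0.744 to 0.779 times the recovered reads in P56-NSC, 0.941 to 0.985 times in AST, 1.10 to 1.15 times in A-iSC and 1.15 to 1.22 times in P0-NSC. The values thus carry a further scaling that differs by group, and how it was done is not stated in the labels. In AST 2, A-iSC 1 and A-iSC 2 short genes stood higher relative to the other libraries of their group (Spearman's rho of the deviation with gene length -0.45, -0.281 and -0.233, across genes). In AST 1, AST 3 and A-iSC 3 long genes did (0.361, 0.385 and 0.328). The defining markers of the labelled cells were checked. In AST, the astrocyte genes Gfap and Aqp4 stood at 29.9 ± 2.30 and 30.8 ± 2.92 FPKM. The 14 astrocyte markers summed to 188.4 to 215.8 FPKM in AST, the lowest of the 4 groups. Their sum was 315.8 to 384.5 FPKM for P0-NSC, 1468 to 2785 for A-iSC, 3604 to 3973 for P56-NSC. Set against AST, P0-NSC had 7 of them higher and 4 lower, A-iSC 12 higher and 0 lower, P56-NSC all 14 higher. The 14 markers of fibroblasts and mural cells summed to 1896 to 2290 FPKM in AST. Of these, 7 reached 1 FPKM in all AST libraries. Acta2 (1848 ± 231 FPKM) and Col1a1 (158 ± 24.2) carried most of that sum. In P0-NSC, 12 of the 14 fibroblast and mural markers reached 1 FPKM in all libraries. Of 13 tested, 8 were higher there than in AST and 4 lower. In A-iSC, Gfap stood at 970.0 ± 448 FPKM, beside a summed 3997 to 5484 FPKM of 14 microglial markers (372.9 to 466.1 in AST). Nes, a progenitor marker, stood at 70.09 ± 5.006 FPKM in A-iSC. Of 12 neural progenitor markers, 4 were higher in A-iSC than in AST and 4 lower. In P56-NSC the progenitor marker Nes was low, at 3.76 ± 0.246 FPKM against 195.8 ± 13.5 in AST. The 13 oligodendrocyte markers summed to 12400 to 14300 FPKM there, with Mbp alone at 5271 ± 347, and 8 of 12 neural progenitor markers were lower than in AST and 4 higher. In P0-NSC Nes stood at 26.9 ± 0.914 FPKM, and of 12 neural progenitor markers 6 were higher than in AST and 5 lower, Nes among the latter. The 18 neuronal markers summed to 900.3 to 1080 FPKM in P0-NSC and 364.0 to 443.5 in P56-NSC. Their sum was 143.9 to 185.4 FPKM in AST and 64.89 to 88.13 in A-iSC. The groups are called by their labels throughout. In such bulk samples, fewer cells of a type and less RNA per cell cannot be told apart.

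Of the 69 genes, 64 reached 1 FPKM in at least 3 libraries and were tested. The other 5 were low in every group: Epha1 (highest group mean 0.264 ± 0.0539 FPKM in P56-NSC), Ntn5 (0.172 ± 0.135 in P0-NSC), Robo3 (0.644 ± 0.413 in P0-NSC), Sema3g (0.571 ± 0.0892 in P0-NSC) and Unc5c (1.01 ± 0.235 in AST). The 64 tested genes divided unevenly over the groups: 33 had their highest mean in P0-NSC, 18 in AST, 10 in P56-NSC and 3 in A-iSC. All 3 libraries of P0-NSC stood above all 9 others for 29 of the 64, and the same held for 17.7% of all tested genes. For AST this held for 15 guidance genes (19.7% of all tested genes), for P56-NSC for 7 (18.1%) and for A-iSC for 2 (7.09%), Plxnc1 and Sema6a.

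**Figure D1:**
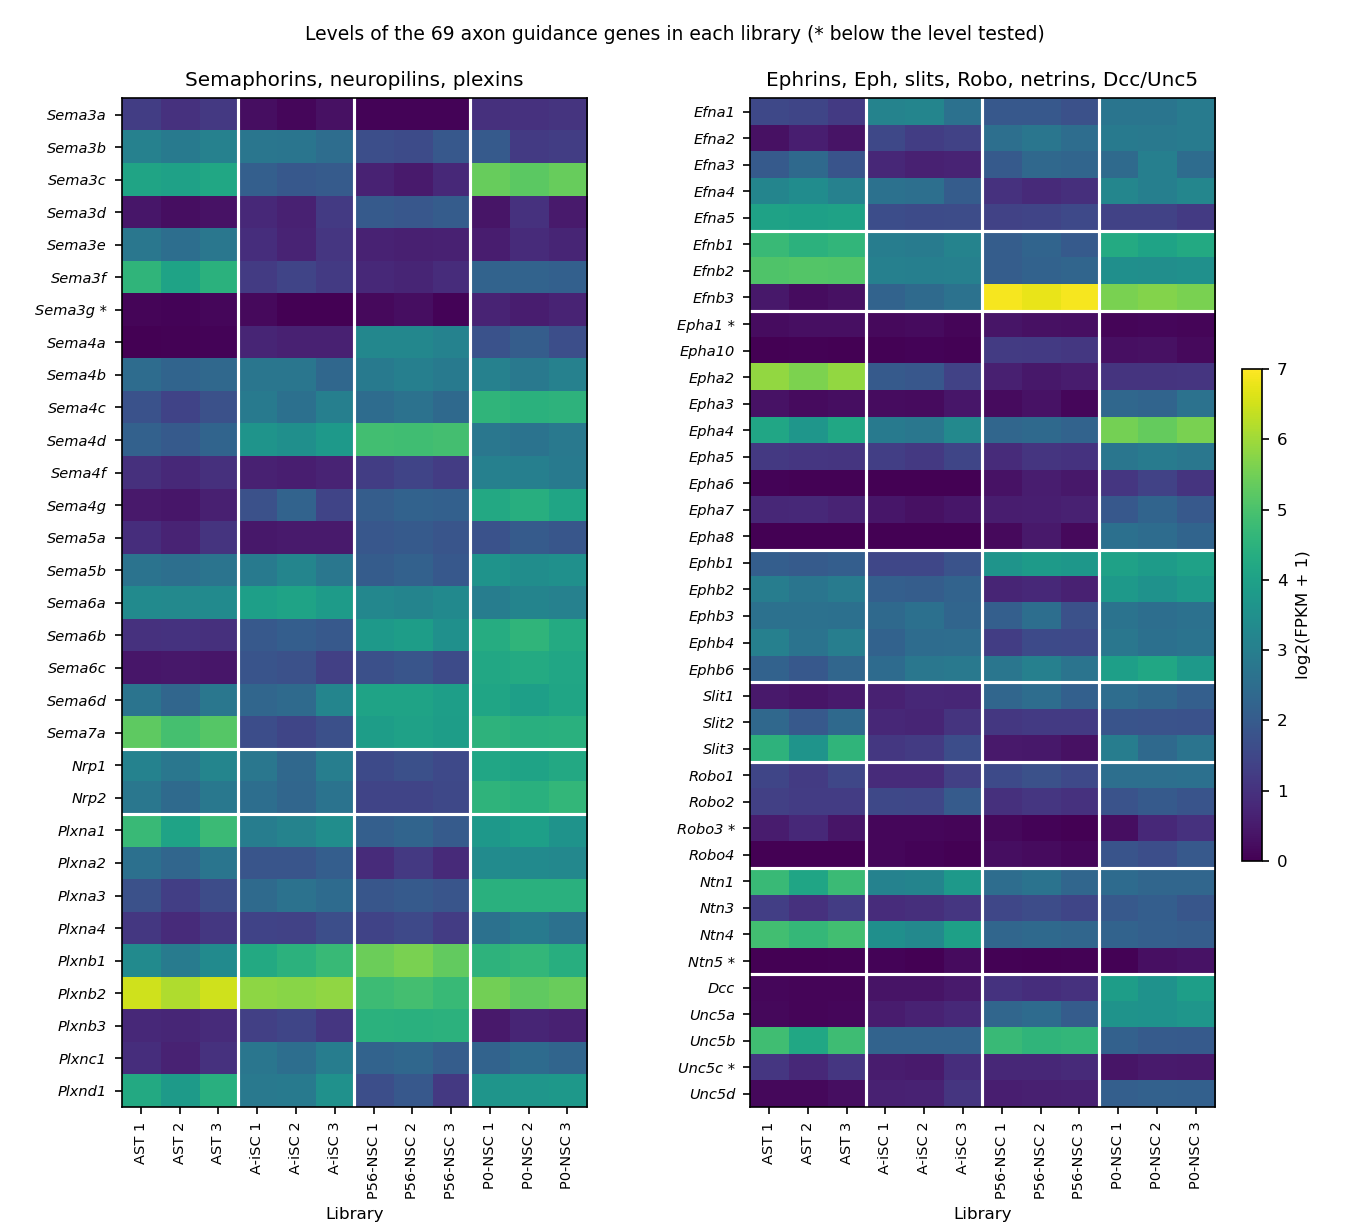
Level of each of the 69 genes (rows, by family, separated by white lines) in each of the 12 libraries (columns, by group), as log2(FPKM + 1) from 0 (dark) to 7 (yellow). The brightest rows differ by group: Epha2, Sema7a and Efnb2 in AST, Efnb3 and Plxnb1 in P56-NSC, Efnb3, Epha4 and Sema3c in P0-NSC, while Plxnb2 is bright in all 4.

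The first comparison, A-iSC against AST, asked what differed after 5 days in spheres. Guidance genes moved in both directions: 22 of the 64 tested were higher in A-iSC and 28 lower at an adjusted p below 0.05 (limma, Benjamini-Hochberg over 15747 genes), where 28.1% and 30.8% of all tested genes were called in these directions. At 2-fold or more, 8 were higher and 17 lower, against 9.15% and 9.61% of all tested genes. Ligands were higher in 12 and lower in 16 of 33, receptors in 10 and 12 of 31. The largest fall was that of the receptor Epha2, from 54.1 ± 5.21 to 2.44 ± 0.713 FPKM, and the largest rise that of the ligand Efnb3, from 0.272 ± 0.0957 to 4.38 ± 0.768 FPKM. The median change of the 64 genes was -0.17, with 0.00 over all genes tested.

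P56-NSC and P0-NSC were each set against AST, and these comparisons share the AST libraries with the first. In P56-NSC 29 guidance genes were higher and 26 lower (37.1% and 37.0% of all tested genes), and at 2-fold or more 17 and 24 (20.3% and 17.1%). Of the guidance calls in P56-NSC, 52.7% were higher as deposited. Under quantile normalization and under scaling by total reads 41.2% were, 21 higher and 30 lower in each. Of the calls over all tested genes, 50.1% were higher as deposited, 44.5% under quantile normalization and 38.1% under scaling by total reads. In P0-NSC 41 guidance genes were higher and 16 lower (35.9% and 38.3% of all tested genes), and at 2-fold or more 32 and 10 (18.4% and 17.5%). The median change was 0.09 in P56-NSC and 0.94 in P0-NSC, with -0.0042 and -0.04 over all genes. Of the 41 genes that were higher in P0-NSC, 23 were receptors (of 31 tested) and 18 ligands (of 33 tested).

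A-iSC was also set against each positive control. Against P56-NSC, 27 guidance genes were higher and 24 lower in A-iSC (31.5% and 31.3% of all tested genes), and at 2-fold or more 10 and 16 (9.16% and 15.3%). Against P0-NSC, 10 were higher and 46 lower (32.6% and 34.7%), and at 2-fold or more 2 and 35 (13.3% and 14.5%). The 2 were Sema3b and Ntn4. Between the positive controls, 8 were higher and 43 lower in P56-NSC than in P0-NSC (35.3% and 33.9%), and at 2-fold or more 6 and 30 (16.3% and 12.4%). The median change of the 64 genes was -1.20 in A-iSC against P0-NSC and -0.94 in P56-NSC against P0-NSC, with -0.01 and 0.0019 over all genes.

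**Figure D2:**
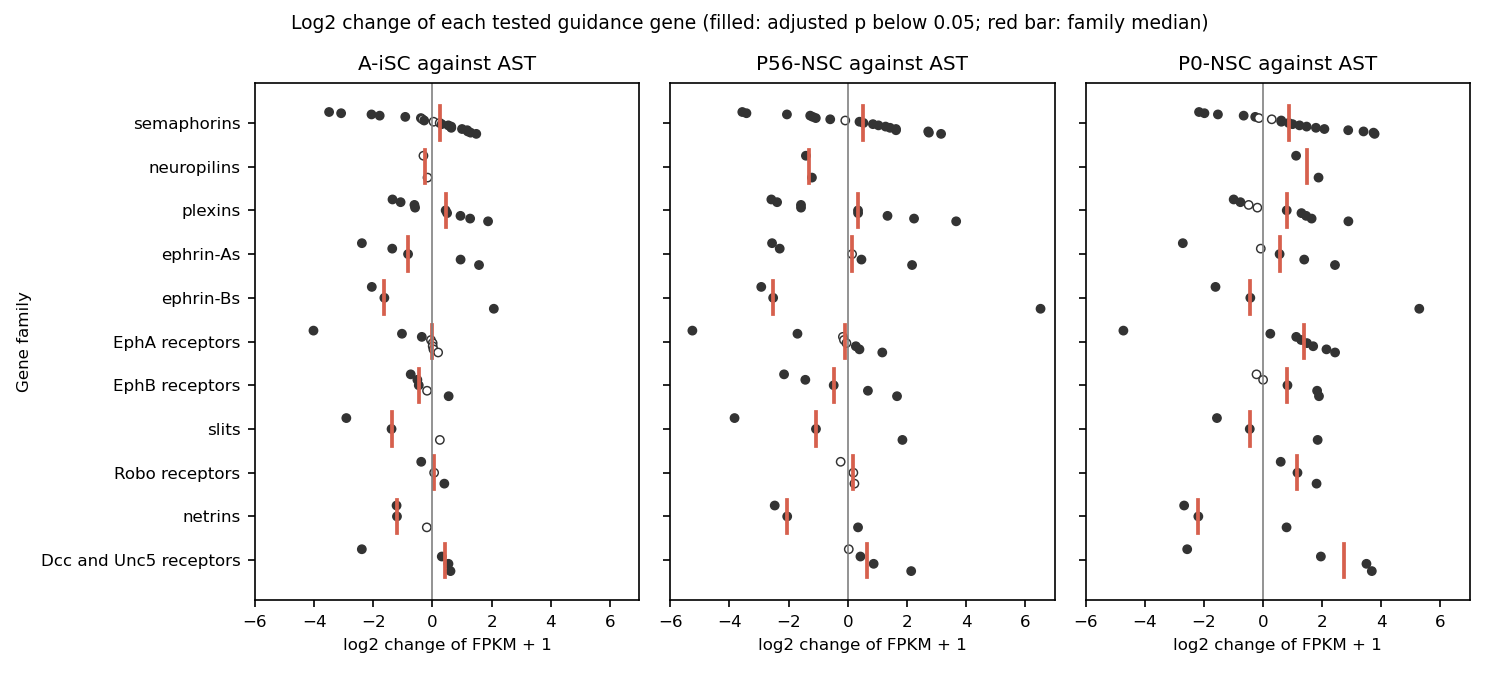
Change of each of the 64 tested genes (points, filled where called at adjusted p below 0.05) by family in A-iSC, P56-NSC and P0-NSC against AST, on the log2(FPKM + 1) scale, with the family median as a red bar. Medians of Dcc with the Unc5 receptors (0.43, 0.65 and 2.73) and of the EphA receptors (-0.02, -0.09 and 1.39) each lie further right in P0-NSC than in A-iSC or P56-NSC. Single genes such as Efnb3, Epha2 and Unc5b (-2.56 in P0-NSC) lie far from their families.

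The region just before the start of 3 genes is printed because these genes carry the contrasts between AST and A-iSC: Epha2 and Sema7a, the largest falls, and Plxnc1, a receptor of Sema7a with its highest level in A-iSC. The sequences are the 250 bases before the annotated start (RefSeq, GRCm38.p6), 5′ to 3′ on the gene's strand, and 59 of the 69 genes had such a row. Capitals mark every match, on either strand, to 5 short motifs: GGAATG (TEAD), TGANTCA (AP-1), CAGCTG (an E-box), TGACGTCA (CRE) and ACAAAG (SOX). The motifs do not overlap within these sequences.
Epha2, chr4:141300971-141301220, plus strand: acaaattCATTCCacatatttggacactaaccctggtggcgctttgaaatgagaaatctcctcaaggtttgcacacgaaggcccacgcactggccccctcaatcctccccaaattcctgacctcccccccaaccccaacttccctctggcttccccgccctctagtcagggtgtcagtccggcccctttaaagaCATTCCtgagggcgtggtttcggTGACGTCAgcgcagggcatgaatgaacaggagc
Sema7a, chr9:57939862-57940111, plus strand: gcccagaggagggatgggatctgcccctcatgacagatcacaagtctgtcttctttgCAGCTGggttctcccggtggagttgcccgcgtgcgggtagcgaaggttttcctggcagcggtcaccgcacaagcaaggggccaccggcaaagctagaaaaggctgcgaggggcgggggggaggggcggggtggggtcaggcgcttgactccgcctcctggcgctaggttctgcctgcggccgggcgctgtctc
Plxnc1, chr10:94944846-94945095, minus strand: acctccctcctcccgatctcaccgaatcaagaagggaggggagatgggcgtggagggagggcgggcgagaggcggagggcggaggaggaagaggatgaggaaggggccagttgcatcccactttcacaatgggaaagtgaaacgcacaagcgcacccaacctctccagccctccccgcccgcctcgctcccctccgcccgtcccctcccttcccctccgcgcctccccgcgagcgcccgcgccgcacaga
The Epha2 stretch held 2 TEAD matches on the opposite strand, beginning 243 and 56 bases before the start, and 1 CRE match at 33 bases. Sema7a held 1 CAGCTG match at 193 bases, and Plxnc1 held none of the 5. Among 32851 promoters of the same length, 12.6% held the TEAD letters, 6.75% AP-1, 13.0% CAGCTG, 1.55% CRE and 16.5% SOX. Among the 75 promoters of the guidance genes the shares were 10.7%, 4.0%, 16%, 1.33% and 9.33%. Their median GC content was 64.8% (59 genes), with 52.4% over all promoters. A match of letters is a description of the sequence and shows no binding.

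Secreted class 3 semaphorins were mostly lower in A-iSC than in AST: of 6 tested, 4 fell, 1 rose and 1 was not called. Over all tested genes 30.8% fell and 28.1% rose. Sema3f, a repellent read through Nrp2 (chromosome 9: 107681500 to 107710475, build GRCm38), stood at 22.8, 15.7 and 21.1 FPKM in AST and 1.31, 1.72 and 1.26 in A-iSC. It was at 0.743, 0.647 and 0.841 FPKM in P56-NSC, with 3.701, 3.68 and 3.44 in P0-NSC. Every AST library was above every other, with AST 2 the lowest of the 3. The fall in A-iSC was 13.9-fold (log2 change -3.09 ± 0.13, limma adjusted p = 3.68e-09) and that in P56-NSC 26.7-fold (log2 change -3.56 ± 0.13, limma adjusted p = 1.96e-10). Sema3c, which acts on migrating neural crest cells and cortical axons (chromosome 5: 17574281 to 17730268), had 16.1, 14.95 and 16.9 FPKM in AST and 3.36, 2.804 and 3.04 in A-iSC. Its values were 0.597, 0.419 and 0.7398 FPKM in P56-NSC, with 40.2, 36.5 and 40.2 in P0-NSC. The 4 groups did not overlap, with P0-NSC highest, then AST, A-iSC and P56-NSC. Sema3c fell in A-iSC against AST (log2 change -2.06 ± 0.10, limma adjusted p = 8.47e-09) and in P56-NSC against AST (log2 change -3.42 ± 0.10, limma adjusted p = 3.02e-11). It was lower in A-iSC than in P0-NSC (log2 change -3.30 ± 0.10, limma adjusted p = 1.29e-10) and higher than in P56-NSC (log2 change 1.36 ± 0.10, limma adjusted p = 1.38e-07), and the gap between the positive controls was 66.6-fold.

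Sema3e, which binds plexin D1 without a neuropilin, followed the AST-high form, at 5.49 ± 0.638 FPKM in AST and 0.891, 0.558 and 0.648 as means of A-iSC, P56-NSC and P0-NSC. It fell in all 3 comparisons with AST. Sema3b had 7.39, 6.28 and 7.36 FPKM in AST, 5.68, 5.64 and 4.69 in A-iSC, 2.195, 2.02 and 2.78 in P56-NSC, with 2.92, 1.27 and 1.42 in P0-NSC. A-iSC did not overlap P0-NSC, where P0-NSC 1 was the highest of its group (log2 change 1.18 ± 0.18, limma adjusted p = 0.000105). The change of Sema3b in A-iSC against AST was not called (-0.34 ± 0.18, limma adjusted p = 0.131). Sema3d was the class 3 member that rose in A-iSC, from 0.268 ± 0.0674 to 0.8603 ± 0.3604 FPKM, and its mean in P56-NSC was 2.93. The call of Sema3d in A-iSC against AST ended under 2 of 23 alternatives. Sema3a, a classical growth cone collapsing factor, was at or below 1.42 FPKM in every library.

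Membrane semaphorins of classes 4 and 6 went the other way in A-iSC against AST, where 28.1% of all tested genes rose and 30.8% fell. In class 4, 4 of 6 rose, 1 fell and 1 was not called, and in class 6, 3 of 4 rose. The call of the 1 that fell, Sema4f, ended under 6 of 23 alternatives. All 6 class 4 genes were higher in P0-NSC than in AST, and also in P56-NSC as deposited (35.9% and 37.1% of all tested genes). In P56-NSC the call of Sema4f ended under quantile normalization and under scaling by total reads, and that of Sema4b under the latter. Sema4d, a ligand of plexin B1 known from oligodendrocytes and immune cells (chromosome 13: 51685529 to 51793747), had 3.49, 2.94 and 3.82 FPKM in AST and 11.3, 10.2 and 12.5 in A-iSC. In P56-NSC it was at 28.3, 27.9 and 29.2 FPKM and in P0-NSC at 5.82, 5.33 and 6.17. The groups did not overlap, in the order P56-NSC, A-iSC, P0-NSC and AST. The rise was 3.31-fold in A-iSC (log2 change 1.48 ± 0.10, limma adjusted p = 1.41e-07) and 8.35-fold in P56-NSC (log2 change 2.75 ± 0.10, limma adjusted p = 1.97e-10), and P56-NSC stood above P0-NSC (log2 change 2.12 ± 0.10, limma adjusted p = 3.81e-09). Oligodendrocyte markers were at 12400 to 14300 summed FPKM in P56-NSC and microglial markers at 3997 to 5484 in A-iSC, and their part in the Sema4d level was not tested.

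Sema4g, a transmembrane semaphorin, had 0.393, 0.336 and 0.535 FPKM in AST, 2.31, 3.66 and 1.701 in A-iSC, 3.21, 3.56 and 3.44 in P56-NSC, with 17.7, 19.8 and 16.5 in P0-NSC. All AST libraries were below all others and all P0-NSC libraries above, while A-iSC and P56-NSC overlapped. It rose 6.08-fold in A-iSC (log2 change 1.29 ± 0.16, limma adjusted p = 2.99e-05) and 42.7-fold in P0-NSC (log2 change 3.74 ± 0.16, limma adjusted p = 1.44e-09). Sema4c, a ligand of plexin B2, had 2.42, 1.66 and 2.36 FPKM in AST, 6.19, 5.05 and 7.098 in A-iSC, 4.53, 5.21 and 4.24 in P56-NSC, with 23.1, 21.2 and 21.9 in P0-NSC. A-iSC stood above AST without overlap (log2 change 1.18 ± 0.13, limma adjusted p = 8.90e-06) and overlapped P56-NSC. Sema4a, known from immune cells and the retina, was nearly absent from AST (0.01103, 0.0365 and 0.0398 FPKM) and had 0.661, 0.568 and 0.566 in A-iSC, 8.43, 8.48 and 7.65 in P56-NSC, with 2.39, 3.19 and 2.18 in P0-NSC. P56-NSC was the highest group, above AST (log2 change 3.16 ± 0.10, limma adjusted p = 8.49e-11), A-iSC (13.7-fold) and P0-NSC (3.17-fold, log2 change 1.37 ± 0.10, limma adjusted p = 2.15e-07). A fold against AST is not given, since the AST values rest on a few reads.

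Sema6c had 0.352, 0.374 and 0.336 FPKM in AST, 2.56, 2.35 and 1.496 in A-iSC, 2.30, 2.56 and 2.03 in P56-NSC, with 17.5, 18.4 and 16.7 in P0-NSC. AST was below and P0-NSC above all other libraries, and A-iSC 3 was the lowest of its group. The rise was 6.03-fold in A-iSC (log2 change 1.19 ± 0.12, limma adjusted p = 5.89e-06) and 49.6-fold in P0-NSC (log2 change 3.77 ± 0.12, limma adjusted p = 1.46e-10). Sema6a, a ligand of plexins A2 and A4, was one of 2 guidance genes with all A-iSC libraries on top, at 14.5, 15.8 and 13.4 FPKM, with 9.098, 8.79 and 9.13 in AST, 8.39, 7.91 and 9.08 in P56-NSC, with 6.79, 7.93 and 7.37 in P0-NSC. It was higher in A-iSC than in P0-NSC (log2 change 0.90 ± 0.09, limma adjusted p = 2.18e-06), and than in AST (0.64 ± 0.09, limma adjusted p = 6.19e-05). Sema6b rose from 1.01 ± 0.0403 to 3.01 ± 0.213 FPKM in A-iSC and had 12.3 in P56-NSC and 20.3 in P0-NSC. Sema6d was not called in A-iSC against AST, where its libraries spread widely (3.91, 4.32 and 8.02 FPKM, with A-iSC 3 the highest).

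Sema7a, the semaphorin anchored in the membrane by a lipid and a ligand of plexin C1 and of integrins (chromosome 9: 57940112 to 57962865), made up 29.0% of all semaphorin FPKM in AST. Its values were 37.1, 29.4 and 34.6 FPKM in AST and 2.15, 1.77 and 2.296 in A-iSC. P56-NSC had 13.8, 15.0 and 13.99 FPKM and P0-NSC 21.8, 20.5 and 20.7. No groups overlapped, and A-iSC was the lowest of the 4. The fall in A-iSC was 16.3-fold (log2 change -3.50 ± 0.10, limma adjusted p = 4.17e-10), while the changes in P56-NSC and P0-NSC against AST were smaller (-1.18 ± 0.10, limma adjusted p = 4.02e-07, and -0.65 ± 0.10, limma adjusted p = 8.26e-05). Of the class 5 genes, Sema5b rose and Sema5a fell in A-iSC against AST, and these calls ended under 6 and 1 of 23 alternatives. Summed over the family, semaphorins stood at 116.2 ± 12.9 FPKM in AST, 72.5 ± 0.669 in A-iSC, 118.6 ± 3.42 in P56-NSC and 204.6 ± 3.50 in P0-NSC, with Sema7a, Sema6a, Sema4d and Sema3c as the leading members in turn.

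**Figure D3:**
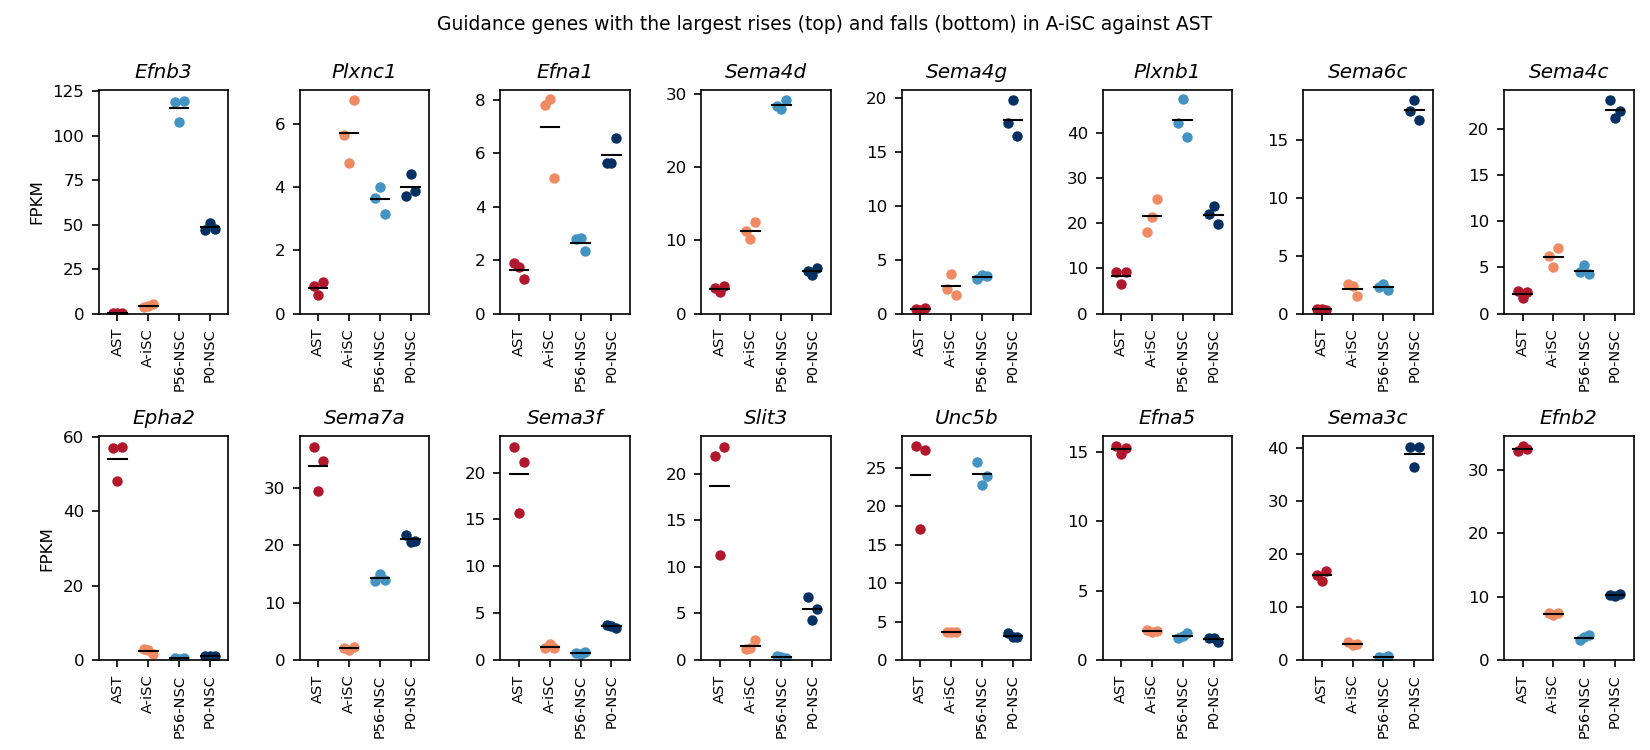
FPKM in each library (points) and group mean (bar) for the 8 largest rises (top) and the 8 largest falls (bottom) in A-iSC against AST, each panel with its own linear axis from 0. In every panel the 3 A-iSC libraries lie apart from the 3 AST libraries, and P56-NSC and P0-NSC lie on either side of A-iSC depending on the gene, as for Sema4d (28.5 and 5.77 FPKM) and Unc5b (24.2 and 3.16).

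Plexins are the semaphorin receptors, and of 9 tested, 5 rose and 4 fell in A-iSC against AST (28.1% and 30.8% of all tested genes). The calls of Plxna4, Plxnb3 and Plxnb2 each ended under 1 of 23 alternatives. Plxnc1, a receptor of Sema7a (chromosome 10: 94790866 to 94944835), had 0.879, 0.597 and 0.993 FPKM in AST and 5.66, 4.76 and 6.78 in A-iSC. It was at 3.68, 4.02 and 3.17 FPKM in P56-NSC, with 3.72, 4.41 and 3.88 in P0-NSC. All A-iSC libraries were above, and all AST libraries below, every other. The rise was 6.97-fold (log2 change 1.88 ± 0.13, limma adjusted p = 1.69e-07). All 14 microglial markers were also higher in A-iSC than in AST (summed 3997 to 5484 against 372.9 to 466.1 FPKM), with C1qa at 1029 ± 192 against 87.1 ± 14.1, and their part in the Plxnc1 level was not tested. Plxnb1, the receptor of Sema4d (chromosome 9: 109095389 to 109119917), had 9.23, 6.56 and 9.29 FPKM in AST, 18.01, 21.5 and 25.4 in A-iSC, 42.3, 47.5 and 39.2 in P56-NSC, with 22.1, 23.8 and 19.8 in P0-NSC. A-iSC and P0-NSC overlapped, with AST below and P56-NSC above them. Plxnb1 rose 2.59-fold in A-iSC (log2 change 1.27 ± 0.15, limma adjusted p = 1.61e-05), so that ligand and receptor of this pair were both higher there.

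Plxnb3, a receptor of Sema5a (chromosome X: 73757090 to 73772514), marked P56-NSC, with 21.2, 20.7 and 21.5 FPKM. It had 0.753, 0.668 and 0.804 FPKM in AST, 1.49, 1.77 and 1.14 in A-iSC and 0.384, 0.656 and 0.554 in P0-NSC. Outside P56-NSC no library reached 2 FPKM. P56-NSC was 28.5-fold above AST (log2 change 3.67 ± 0.11, limma adjusted p = 3.32e-11), 14.4-fold above A-iSC and 39.8-fold above P0-NSC (log2 change 3.86 ± 0.11, limma adjusted p = 4.88e-11). All 13 oligodendrocyte markers were higher in P56-NSC than in AST, A-iSC and P0-NSC, and their part in the Plxnb3 level was not tested. Plxnd1, the receptor of Sema3e, had 18.2, 13.1 and 20.4 FPKM in AST, 6.18, 6.45 and 10.6 in A-iSC, 2.19, 2.79 and 1.23 in P56-NSC, with 11.6, 11.7 and 12.2 in P0-NSC. A-iSC stood above P56-NSC without overlap (log2 change 1.51 ± 0.22, limma adjusted p = 9.27e-05), with A-iSC 3 the highest of its group. Plxnd1 and Sema3e both fell in A-iSC against AST, by 1.08 and 1.78 on the log2 scale.

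Plxnb2, which supports the proliferation of neural progenitors, had the highest level of any plexin in AST and A-iSC, at 83.3 ± 10.95 and 54.8 ± 1.65 FPKM. It fell in A-iSC against AST (-0.59 ± 0.11, limma adjusted p = 0.000617). Plxna1 fell from 22.6 ± 6.01 to 8.09 ± 1.53 FPKM and Plxna2 from 4.81 ± 0.808 to 2.796 ± 0.3702. Plxna3 rose from 1.97 ± 0.429 to 4.695 ± 0.479 FPKM and stood at 20.8 ± 0.102 in P0-NSC. The A plexins are the signalling partners of neuropilins. Neither neuropilin was called in A-iSC against AST, with Nrp1 at 7.17 ± 1.18 and 5.68 ± 1.44 FPKM (-0.31 ± 0.15, limma adjusted p = 0.108). Nrp2, the co-receptor of Sema3f, had 5.81, 4.402 and 5.99 FPKM in AST, 4.79, 3.95 and 5.34 in A-iSC, 1.71, 1.69 and 1.85 in P56-NSC, with 22.6, 20.7 and 24.04 in P0-NSC. P0-NSC was above and P56-NSC below all other libraries, while AST and A-iSC overlapped. The 2 positive controls differed 12.8-fold (log2 change -3.09 ± 0.12, limma adjusted p = 8.33e-10), and Nrp1 differed in the same direction (-2.53 ± 0.15, limma adjusted p = 3.37e-08).

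Ephrin-Bs changed their leading member. Efnb3, the ephrin of the midline of spinal cord and brain and a ligand of EphA4 (chromosome 11: 69554092 to 69560205), had 0.375, 0.186 and 0.254 FPKM in AST and 3.65, 4.32 and 5.18 in A-iSC. It had 119, 108 and 119.8 FPKM in P56-NSC, with 47.1, 50.9 and 47.5 in P0-NSC. The 4 groups did not overlap, in the order P56-NSC, P0-NSC, A-iSC and AST. The rise against AST was 16.1-fold in A-iSC (log2 change 2.08 ± 0.11, limma adjusted p = 1.72e-08), 179-fold in P0-NSC (log2 change 5.29 ± 0.11, limma adjusted p = 6.89e-12) and 426-fold in P56-NSC (log2 change 6.52 ± 0.11, limma adjusted p = 5.07e-13). These folds are uncertain in size, since the AST values rest on as few as 12 reads in a library. A-iSC stayed 26.4-fold below P56-NSC and 11.1-fold below P0-NSC. Efnb3 made up 94.4% of ephrin-B FPKM in P56-NSC and 63.7% in P0-NSC, where Efnb2 led in AST (58.2%) and in A-iSC (39.0%).

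Efnb2, a ligand known from arteries and from astrocytes (chromosome 8: 8617434 to 8661242), had 32.96, 33.7 and 33.3 FPKM in AST, 7.35, 7.15 and 7.35 in A-iSC, 3.15, 3.58 and 3.87 in P56-NSC, with 10.3, 10.1 and 10.5 in P0-NSC. The groups did not overlap, and the 3 libraries of each lay close together. The fall in A-iSC was 4.58-fold (log2 change -2.05 ± 0.08, limma adjusted p = 1.54e-09). Efnb1, whose gene lies on the X chromosome, fell beside it from 23.7 ± 2.11 to 6.995 ± 0.648 FPKM (-1.63 ± 0.11, limma adjusted p = 1.25e-07). Both were also lower in P56-NSC and in P0-NSC than in AST, and the call of Efnb1 in P0-NSC (-0.43 ± 0.11, limma adjusted p = 0.00332) ended under 3 of 23 alternatives, quantile normalization and scaling by total reads among them.

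Of the 5 ephrin-As, 2 rose and 3 fell in A-iSC against AST (28.1% and 30.8% of all tested genes). Efna5, a repellent of retinal axons in topographic mapping (chromosome 17: 62604184 to 62881317), had 15.4, 14.9 and 15.3 FPKM in AST, 2.15, 2.03 and 2.11 in A-iSC, 1.61, 1.70 and 1.94 in P56-NSC, with 1.58, 1.58 and 1.27 in P0-NSC. AST stood alone, and the other 3 groups lay between 1 and 3 FPKM. The fall was 7.24-fold in A-iSC (log2 change -2.39 ± 0.08, limma adjusted p = 1.08e-09) and 10.3-fold in P0-NSC (log2 change -2.71 ± 0.08, limma adjusted p = 9.04e-11). Efna1, the usual ligand of EphA2 (chromosome 3: 89271733 to 89281142), went the other way, with 1.89, 1.75 and 1.295 FPKM in AST, 7.78, 8.02 and 5.08 in A-iSC, 2.77, 2.83 and 2.32 in P56-NSC, with 5.64, 5.63 and 6.55 in P0-NSC. AST was below all other libraries, and A-iSC 3 was the lowest of A-iSC and below the P0-NSC libraries. The rise in A-iSC was 4.23-fold (log2 change 1.57 ± 0.15, limma adjusted p = 2.93e-06). Efna4 had 8.09, 9.65 and 7.41 FPKM in AST, 5.09, 4.87 and 3.103 in A-iSC, 1.01, 0.779 and 0.911 in P56-NSC, with 8.28, 7.07 and 8.33 in P0-NSC. P56-NSC was below all other libraries, and A-iSC stood 4.84-fold above it (log2 change 1.47 ± 0.15, limma adjusted p = 3.22e-06). Efna2 rose from 0.355 ± 0.136 to 1.62 ± 0.219 FPKM and Efna3 fell from 3.24 ± 0.869 to 0.632 ± 0.0803.

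EphA receptors summed to 71.7 ± 8.10 FPKM in AST and 11.6 ± 1.31 in A-iSC, and most of that difference was Epha2. Epha2, a receptor of Efna1 found on epithelia and on many dividing cells (ENSMUSG00000006445, chromosome 4: 141301240 to 141329384), had 57.01, 48.1 and 57.3 FPKM in AST and 2.94, 2.75 and 1.62 in A-iSC. It had 0.518, 0.3599 and 0.455 FPKM in P56-NSC, with 1.08, 1.07 and 1.12 in P0-NSC. AST stood far above the rest, A-iSC above both positive controls, and no groups overlapped. The fall was 22.2-fold in A-iSC (log2 change -4.02 ± 0.14, limma adjusted p = 1.08e-09), 122-fold in P56-NSC (log2 change -5.25 ± 0.14, limma adjusted p = 1.81e-11) and 49.8-fold in P0-NSC (log2 change -4.72 ± 0.14, limma adjusted p = 6.73e-11). Receptor and ligand thus stood at 54.1 ± 5.21 and 1.65 ± 0.312 FPKM in AST and at 2.44 ± 0.713 and 6.96 ± 1.64 in A-iSC. Epha2 made up 75.5% of EphA FPKM in AST, and in the other groups Epha4 led, with 60.1% in A-iSC, 48.2% in P56-NSC and 68.1% in P0-NSC. Beside these levels, the fibroblast and mural markers summed to 1896 to 2290 FPKM in AST and to 37.03 to 70.67 in A-iSC. Of 13 of them tested, 7 fell and 2 rose (Vtn and Kcnj8), with a median change of -0.43, and Acta2 went from 1848 ± 231 to 41.6 ± 16.6 FPKM. Their part in the fall of Epha2 was not tested.

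Epha4, which binds ephrins of both classes and is known from radial glia and astrocytes, had 16.7, 11.9 and 17.1 FPKM in AST, 6.18, 5.87 and 8.82 in A-iSC, 3.93, 4.26 and 3.65 in P56-NSC, with 45.3, 40.01 and 46.9 in P0-NSC. P0-NSC was highest and P56-NSC lowest with no overlap, and P56-NSC stood 11.2-fold below P0-NSC (log2 change -3.19 ± 0.16, limma adjusted p = 5.74e-09). In A-iSC against AST Epha4 fell (-1.03 ± 0.16, limma adjusted p = 0.000135). Of the 8 EphA receptors tested, 7 were higher in P0-NSC than in AST, all but Epha2 (35.9% of all tested genes were higher), and the call of Epha10 ended under 3 of 22 alternatives. Several were barely detected elsewhere: Epha8 stood at 4.46 ± 0.605 FPKM in P0-NSC and below 0.5 FPKM in every other library, and Epha3 at 4.37 ± 0.756 in P0-NSC and below 0.5 elsewhere. Epha10 reached 1 FPKM only in P56-NSC (1.34, 1.29 and 1.18 FPKM). In A-iSC against AST, 5 EphA receptors were not called, with changes of -0.05 to 0.19.

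EphB receptors had no call in common in A-iSC against AST: 1 of 5 rose, 3 fell and 1 was not called, with a median change of -0.46. Over all tested genes 28.1% rose and 30.8% fell. Ephb2, a receptor of ephrin-Bs at synapses and in intestinal and neural progenitors, had 6.85, 5.57 and 6.56 FPKM in AST, 3.33, 3.15 and 3.72 in A-iSC, 0.644, 0.736 and 0.559 in P56-NSC, with 12.7, 10.9 and 12.4 in P0-NSC. The groups did not overlap, in the order P0-NSC, AST, A-iSC and P56-NSC. A-iSC was 5.26-fold above P56-NSC (log2 change 1.42 ± 0.10, limma adjusted p = 1.15e-07), and P56-NSC 18.6-fold below P0-NSC (log2 change -2.98 ± 0.10, limma adjusted p = 2.34e-10). Ephb6, a kinase-inactive member, rose from 3.44 ± 0.591 to 5.497 ± 0.911 FPKM in A-iSC and stood at 14.8 ± 2.08 in P0-NSC. Ephb4, the partner of Efnb2 in vessels, fell from 6.49 ± 1.05 to 4.24 ± 0.557 FPKM, a call that ended under 2 of 23 alternatives. Ephb1 was at 12.2 ± 0.832 FPKM in P56-NSC and 14.5 ± 1.11 in P0-NSC, above AST (3.16 ± 0.147) and A-iSC (2.03 ± 0.354).

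**Figure D4:**
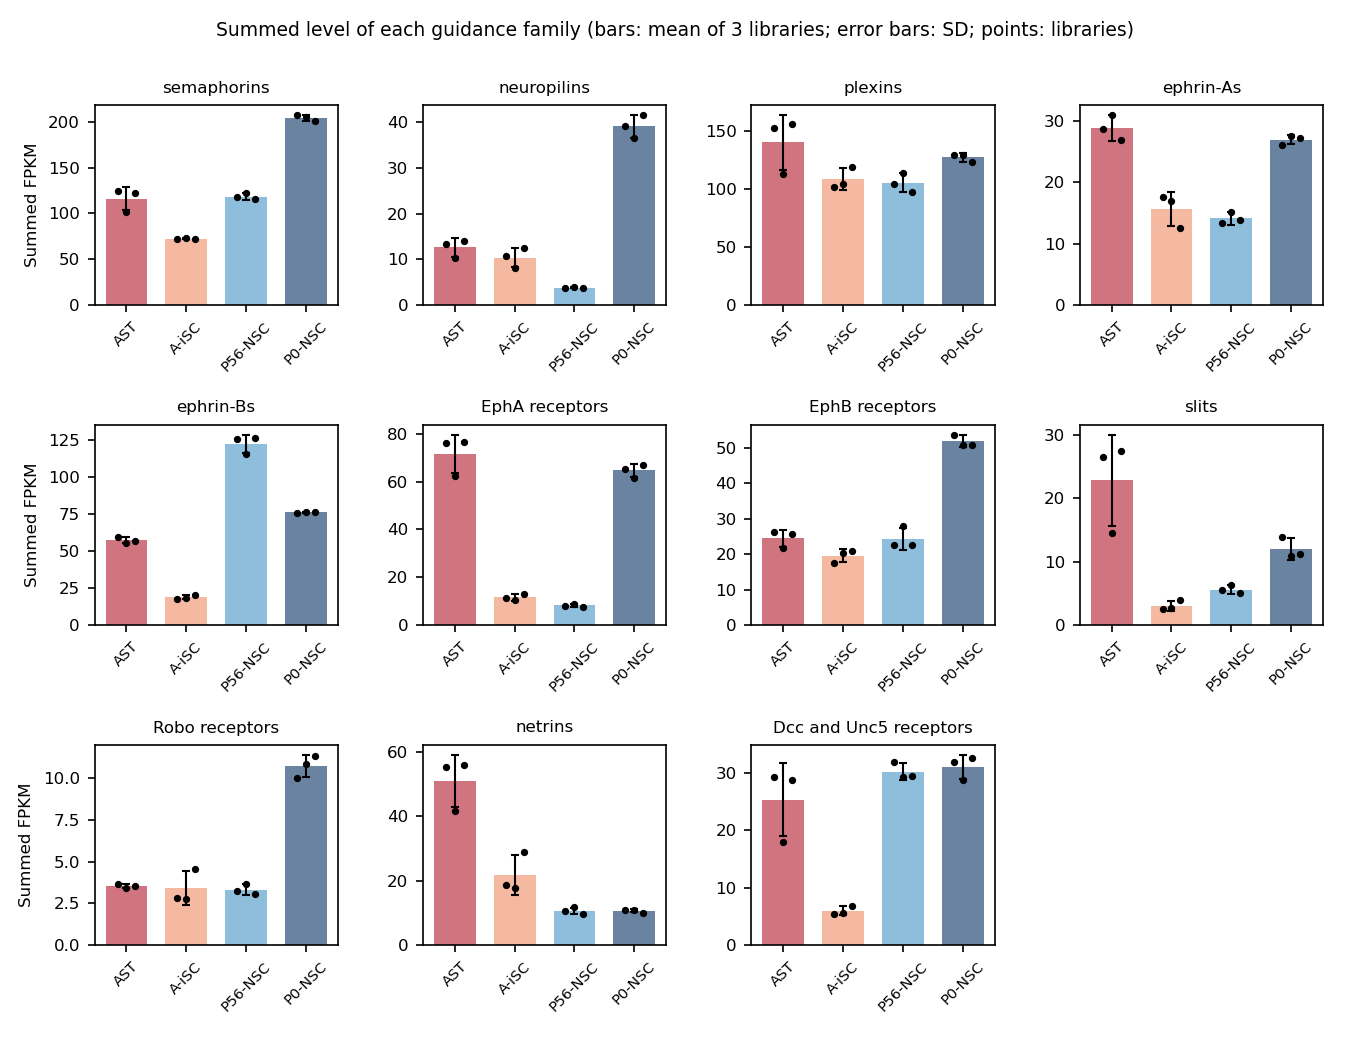
Summed FPKM of all members of each of the 11 families by group: bars are means of 3 libraries, error bars the SD, points the libraries, each panel with its own axis from 0. A-iSC has the lowest bar for the semaphorins (72.5 FPKM), ephrin-Bs (18.7), EphB receptors (19.5), slits (3.01) and Dcc with the Unc5 receptors (5.95). P0-NSC has the highest for the semaphorins, neuropilins, EphB receptors and Robo receptors. For Dcc with the Unc5 receptors, P0-NSC (28.75 to 32.67 FPKM) and P56-NSC (29.33 to 32.03) overlap.

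Slits summed to 22.8 ± 7.22 FPKM in AST and 3.01 ± 0.764 in A-iSC. Slit3 (chromosome 11: 35121224 to 35708507), which led the family in AST, had 21.9, 11.3 and 22.9 FPKM in AST, 1.18, 1.32 and 2.12 in A-iSC, 0.389, 0.359 and 0.2502 in P56-NSC, with 6.78, 4.26 and 5.47 in P0-NSC. AST was above all other libraries and P56-NSC below them, and AST 2 had a much lower value than AST 1 and AST 3. The fall was 12.1-fold in A-iSC (log2 change -2.91 ± 0.24, limma adjusted p = 7.70e-07) and 56.1-fold in P56-NSC (log2 change -3.83 ± 0.24, limma adjusted p = 2.46e-08). Without AST 1, AST 3 and A-iSC 3 the change of Slit3 in P56-NSC against AST was -3.21 (limma adjusted p = 8.67e-07). Slit2 fell from 3.77 ± 0.758 to 0.819 ± 0.224 FPKM, and Slit1 was not called in A-iSC (0.385 ± 0.0536 and 0.648 ± 0.0835 FPKM) but stood at 4.02 ± 0.604 in P56-NSC and 4.02 ± 0.646 in P0-NSC. Their receptors were low in AST, A-iSC and P56-NSC, with summed Robo levels of 3.55 ± 0.121, 3.39 ± 1.02 and 3.32 ± 0.322 FPKM, and reached 10.7 ± 0.680 in P0-NSC. Robo1 fell and Robo2 rose in A-iSC against AST, and these calls ended under 8 and 3 of 23 alternatives. Robo4, a receptor of endothelial cells, was at 2.52, 2.22 and 2.85 FPKM in P0-NSC and at most 0.206 in any other library. The 12 endothelial markers summed to 98.4 to 108.3 FPKM in P0-NSC and 3.279 to 11.45 in the other groups, with Cldn5 at 50.8 ± 2.24 FPKM in P0-NSC, and their part in the Robo4 level was not tested.

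Of the 3 netrins tested, 2 fell in A-iSC against AST, Ntn1 and Ntn4 (30.8% of all tested genes fell). Ntn1, the netrin of the floor plate (chromosome 11: 68209364 to 68400823), had 25.7, 16.2 and 26.3 FPKM in AST, 7.54, 7.91 and 12.6 in A-iSC, 4.64, 5.39 and 3.94 in P56-NSC, with 4.42, 3.95 and 3.97 in P0-NSC. AST was above all other libraries and A-iSC above both positive controls, with AST 2 and A-iSC 3 furthest from the rest of their groups. Ntn1 was lower in A-iSC than in AST (-1.20 ± 0.20, limma adjusted p = 0.000308) and higher than in P0-NSC (log2 change 0.99 ± 0.20, limma adjusted p = 0.000997). Ntn4, a netrin of basement membranes that binds laminin (chromosome 10: 93640681 to 93747207), had 28.2, 24.3 and 28.3 FPKM in AST, 10.2, 8.86 and 14.8 in A-iSC, 3.99, 4.21 and 3.93 in P56-NSC, with 3.704, 3.36 and 3.14 in P0-NSC. The order AST, A-iSC, P56-NSC and P0-NSC held with no overlap between groups. Ntn4 was 3.31-fold higher in A-iSC than in P0-NSC (log2 change 1.45 ± 0.15, limma adjusted p = 2.91e-06) and 7.92-fold lower in P0-NSC than in AST (log2 change -2.67 ± 0.15, limma adjusted p = 1.01e-08). The values of P56-NSC and P0-NSC were not called different (0.20 ± 0.15, limma adjusted p = 0.251). Ntn3, whose counts overlap those of Tbc1d24 on the same strand and are uncertain for that reason, was not called in A-iSC against AST.

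The netrin receptors split. Unc5b, a repulsive receptor known from vessels and glia (chromosome 10: 60762593 to 60831581), had 27.9, 17.04 and 27.3 FPKM in AST, 3.71, 3.66 and 3.68 in A-iSC, 25.8, 22.8 and 23.95 in P56-NSC, with 3.48, 3.03 and 2.97 in P0-NSC. AST overlapped P56-NSC, where AST 2 was the lowest library, and both stood above A-iSC and P0-NSC. A-iSC and P0-NSC did not overlap but were not called different (0.17 ± 0.15, limma adjusted p = 0.335). The fall against AST was 6.54-fold in A-iSC (log2 change -2.39 ± 0.15, limma adjusted p = 9.41e-08) and 7.62-fold in P0-NSC (log2 change -2.56 ± 0.15, limma adjusted p = 1.97e-08), and none was called in P56-NSC (0.04 ± 0.15, limma adjusted p = 0.841). A-iSC stood 6.56-fold below P56-NSC (log2 change -2.43 ± 0.15, limma adjusted p = 4.49e-08), and P56-NSC 7.65-fold above P0-NSC (log2 change 2.60 ± 0.15, limma adjusted p = 2.63e-08).

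Dcc, the attractive netrin receptor, was a gene of P0-NSC, with 13.8, 10.9 and 14.04 FPKM there. It had 0.08604, 0.0711 and 0.0777 FPKM in AST, 0.301, 0.294 and 0.433 in A-iSC and 1.05, 0.885 and 1.01 in P56-NSC. The 4 groups did not overlap. Dcc was 165-fold higher in P0-NSC than in AST (log2 change 3.68 ± 0.10, limma adjusted p = 3.68e-11), and A-iSC stood 37.6-fold below P0-NSC (log2 change -3.37 ± 0.10, limma adjusted p = 1.32e-10). The fold against AST is uncertain, since the AST values rest on as few as 19 reads in a library. The small rise of Dcc in A-iSC against AST (0.31 ± 0.10, limma adjusted p = 0.0169) ended under 2 of 23 alternatives. Unc5a, found mainly in neurons, had 0.1002, 0.07099 and 0.0904 FPKM in AST, 0.4404, 0.585 and 0.734 in A-iSC, 3.97, 4.43 and 3.13 in P56-NSC, with 11.1, 10.9 and 11.9 in P0-NSC. The groups followed the order P0-NSC, P56-NSC, A-iSC and AST with no overlap. A-iSC was 19.3-fold below P0-NSC (log2 change -2.96 ± 0.11, limma adjusted p = 4.97e-10). The Unc5a gene overlaps Hk3 on the opposite strand. Reads from the shared stretch cannot be told apart, because the library kit does not mark strand. Unc5d stood at 3.42 ± 0.0653 FPKM in P0-NSC and at most 1.13 in any other library. Of the 18 neuronal markers, 16 were higher and 1 lower in P0-NSC than in AST. In P56-NSC, 15 were higher and 2 lower than in AST, and 10 were higher and 5 lower than in P0-NSC. Dcx stood at 88.1 ± 6.73 FPKM in P0-NSC, 3.34 ± 0.398 in P56-NSC and 0.0833 ± 0.0245 in AST. Snap25 stood at 14.9 ± 1.20, 33.7 ± 2.99 and 0.0912 ± 0.0308 FPKM in the same order. The part of the neuronal markers in the levels of Dcc and Unc5a was not tested.

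Other genes of the pathways were read from 2 lists. Of 31 other guidance cues and co-receptors (30 tested), 12 were higher and 10 lower in A-iSC than in AST, where 28.1% and 30.8% of all tested genes were. P56-NSC had 14 higher and 12 lower than AST (37.1% and 37.0% of all tested genes), P0-NSC 21 higher and 8 lower (35.9% and 38.3%). Islr2, a membrane protein of growing sensory and motor axons, was at 0.288 ± 0.0393 FPKM in AST, 0.946 ± 0.182 in A-iSC, 8.97 ± 1.39 in P56-NSC and 226 ± 23.98 in P0-NSC. Draxin, a secreted ligand of Dcc, stood at 0.3799 ± 0.0683, 3.37 ± 0.921, 2.01 ± 0.2595 and 52.0 ± 6.45 FPKM in the same order, and so was highest where Dcc was. Cxcl12, a chemokine that guides migrating neurons, had 12.99 ± 1.203 FPKM in AST and 0.555 ± 0.03599 in A-iSC. Rtn4r is listed at 0 in all 12 libraries. Of 50 signal transducers below the receptors, all tested, 8 were higher and 29 lower in A-iSC than in AST, beside the same 28.1% and 30.8% of all tested genes. In P56-NSC, 16 were higher and 21 lower than in AST (37.1% and 37.0%), and in P0-NSC 17 and 19 (35.9% and 38.3%). Rnd1, a small GTPase that binds plexins, fell from 92.02 ± 5.96 FPKM in AST to 4.29 ± 0.304 in A-iSC, and had 1.34 ± 0.245 in P56-NSC and 2.29 ± 0.188 in P0-NSC. Crmp1, a mediator of semaphorin signals in growth cones, was at 127 ± 12.9 FPKM in P0-NSC and 1.65 ± 0.285 in AST. Fes, a kinase recruited by plexins and also found in myeloid cells, rose from 1.12 ± 0.234 to 7.99 ± 3.09 FPKM in A-iSC. Rock2, a kinase that contracts the actin cytoskeleton, fell from 32.8 ± 3.58 to 7.899 ± 1.37 FPKM there.

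The gene models limit some values. Of the 69 genes, 31 overlap a gene on the opposite strand, 5 of them a protein-coding one. Without strand information, reads from the shared stretch cannot be told apart. How far the overlaps reach into the counted parts of the genes was not checked. Counting error is small for the described genes in the groups where they are high, and large for values under 0.1 FPKM, which rest on few reads. The counts of called genes stayed within 1.5 times under each of 23 alternatives, among them leaving out AST 2, A-iSC 1 and A-iSC 2 (22 higher and 25 lower in A-iSC than in AST) and leaving out AST 1, AST 3 and A-iSC 3 (20 and 25).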

How the data were processed

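The deposited table holds FPKM values per gene, which the authors normalized before they deposited them. Per the submitters' processing notes, reads were handled with Bowtie 0.12.2, with mm8 and mm9 as named builds. The table's coordinates match GRCm38 (99.5% of identifiers shared with GENCODE M21). How reads were counted is not stated there. Per the labels' protocols, 3 µg of RNA per sample went into unstranded libraries (NEBNext Ultra). Multiplied by gene length, 100% of the deposited FPKM values above 0 gave whole reads (within 0.01).

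The test was limma 3.58.1 (R 4.3.3) on log2(FPKM + 1): all 12 libraries in 1 fit, a mean per group, 6 comparisons, and an empirical Bayes spread that follows the mean. Tested were the 15747 genes with at least 1 FPKM in 3 or more libraries, and 441 rows without a gene name (0.0957% to 0.156% of reads) were left out. Calls used Benjamini-Hochberg adjusted p-values below 0.05. The fit was tested on simulated reads with the same spread setting for every gene and no length trend within groups. They thus do not cover the length trend of the AST and A-iSC libraries. Alternatives were another pseudocount, other filters and scalings, limma-voom on recovered reads, removal of the length trend, a replicate block, a fit of 2 groups only and leaving out libraries. Described with library values were the called members without overlap, with 2 FPKM or more in the higher group and the largest changes: 8 in each direction for A-iSC against AST and 4 for the other comparisons. Members named beside these were chosen by family after their values were seen. The members and lists were chosen with earlier results of these data known. Promoters and motifs were read in Python 3.11.15.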

Additional observations from a re-analysis of the deposited data

How the results depend on the processing

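The 12 counts of guidance genes higher or lower stayed within 1.5 times of the reported counts under 21 other settings and 2 more, chosen after seeing the data, which leave out AST 2, A-iSC 1 and A-iSC 2, or AST 1, AST 3 and A-iSC 3. The 56 changes that the rule for named genes chose (29 genes) all stayed called, in the same direction, in these settings, and of all 320 called changes 277 did. Of the other 43, 12 were in A-iSC against AST. One change turned its direction: log2 change of Plxna4, P56-NSC against AST, which was -0.0043 under quantile normalization (limma adjusted p = 0.977). Leaving out 1 library in turn gave 21 to 23 rises and 26 to 31 falls from AST to A-iSC, with 40 to 42 and 15 to 19 for P0-NSC against AST. Scaling by total reads moved the median of all genes by up to -0.46 (P56-NSC against P0-NSC), with 6 guidance genes higher and 53 lower there. Of the calls over all tested genes in that comparison, 26.4% were higher under this scaling and 51.0% as deposited. Changes under limma-voom and with a pseudocount of 0.1 were larger for low genes, since a pseudocount of 1 shrinks them.

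With the replicate number as a replicate block, 22 guidance genes rose and 28 fell from AST to A-iSC, and P56-NSC (29 and 26) and P0-NSC (41 and 16) were also set against AST. A-iSC against P56-NSC gave 27 and 24, A-iSC against P0-NSC 10 and 45, and P56-NSC against P0-NSC 8 and 43. Same-numbered libraries of different groups correlated between -0.395 and 0.442 in their deviations from the group means. Of the 12 libraries, 3 correlated best with their own number. In AST and A-iSC these deviations also followed gene length, so whether the numbers pair the libraries cannot be decided from them. Depth limits values under about 0.1 FPKM.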
